A study of Mus musculus with 8 samples.

Results

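The genes described here encode the acid compartment of the cell and the machinery that delivers cargo to it. They are the rows of the count table whose symbols name subunits of the vacuolar proton pump (Atp6v0 and Atp6v1), lysosome-associated membrane proteins (Lamp), cathepsins (Cts followed by 1 letter, without Ctss and Ctsk) or autophagy proteins (Atg). This rule found 60 of 48587 gene symbols, made up of 22 proton pump genes (9 of the membrane sector V0 and 13 of the cytosolic sector V1), 4 Lamp genes, 16 cathepsins and 18 Atg genes. RNA of the whole mouse aortic tree was sequenced in 8 libraries, which form 4 groups of 2. The groups are WT mice given vehicle (WT_vehicle), WT mice given VitD (WT_VitD), and mice with a Tet2 knockout specific to vascular smooth muscle cells (VSMC) given vehicle (Tet2KO_vehicle) or VitD (Tet2KO_VitD). The controls are litter controls. The sources used here do not give the driver of the knockout, the deleted part of Tet2, the age and strain of the mice, the dose and duration of VitD or how many mice a library holds. They also do not say whether libraries are separate animals, and every p-value below therefore rests on a spread that may be technical.

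The vacuolar proton pump acidifies lysosomes by turning ATP hydrolysis in its V1 sector into proton flow through its V0 sector. Cathepsins are proteases that work in that acid interior, and Lamp proteins cover the inner face of the lysosomal membrane. Atg proteins build the autophagosome, the double membrane that encloses cytoplasm and fuses with the lysosome. Many lysosomal genes carry an E-box in the promoter that is bound by TFEB and its relatives. Lysosomes are abundant in macrophages and osteoclasts, and the aortic wall holds smooth muscle cells, fibroblasts, endothelium, resident macrophages and the surrounding fat. In bulk tissue, fewer cells of a type and less RNA per cell cannot be told apart.

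Promoter stretches with this E-box are shown because it is a known feature of many lysosomal promoters, although most of the windows below did not hold it. RefSeq promoter windows (build GRCm38.p6, 250 bases before to 50 bases after a RefSeq transcription start) were at hand for 48 of the 60 genes. This start can lie inside the annotated gene, as for Atp6v0e, Atg14 and Ctsa. Stretches that would overlap an annotated exon or pass the start are limited to 30 bases. The E-box CACGTG, which reads the same on both strands, was in the window of 13 of these 48 genes (27.1%), against 8.09% of 27025 genes with a window. The longer form TCACGTGA, which contains CACGTG, was in 6 of 48 (12.5%) against 1.13% of all genes, and the same 8 letters with a G before and a C after were in 0 of 48, against 0.37% of all genes. A match describes these letters and is no evidence of binding. Capitals mark the match in each stretch, written 5′ to 3′ along the strand of the gene.
Atp6v0d1, V0 subunit d, chr8:105566050-105566079, minus strand: ccctactgcggTCACGTGAgacgcggtgcg
Atp6v0e, V0 subunit e, chr17:26676387-26676416, plus strand: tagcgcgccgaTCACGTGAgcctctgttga
Atp6v1a, catalytic V1 subunit A, chr16:44139348-44139427, minus strand: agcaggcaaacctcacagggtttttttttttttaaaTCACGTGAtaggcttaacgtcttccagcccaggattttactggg
Lamp1, chr8:13159080-13159157, plus strand, with 4 matches: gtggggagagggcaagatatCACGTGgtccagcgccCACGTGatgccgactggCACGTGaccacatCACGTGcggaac
Ctsa, chr2:164833749-164833778, plus strand: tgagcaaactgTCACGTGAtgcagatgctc
Ctsd, chr7:142387908-142387937, minus strand: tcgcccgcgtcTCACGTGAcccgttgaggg
Ctsl, chr13:64370739-64370768, minus strand: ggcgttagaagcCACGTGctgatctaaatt
Atg3, chr16:45158746-45158775, plus strand: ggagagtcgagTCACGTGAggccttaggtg
Atg14, chr14:47568418-47568447, minus strand: aaaacaaaatccCACGTGactggccctgag

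Library totals ran from 15679274 to 22332149 counts. The library names carry numbers in 2 ranges, and WT_VitD 1, WT_VitD 2 and Tet2KO_VitD 1 hold the higher range, so both WT_VitD libraries differ from both WT_vehicle libraries in number range as well as in treatment. Tet2KO_VitD 2 stood nearer to the vehicle libraries than the other 3 VitD libraries: 57.3% of all tested genes lay within the range of the 4 vehicle libraries, against 31.6% in WT_VitD 1, 27.9% in WT_VitD 2 and 30.8% in Tet2KO_VitD 1. Tet2 was not lower in the knockout groups. It stood at 35.8 and 32.2 CPM (counts scaled to library size) in WT_vehicle and 18.3 and 20.04 in WT_VitD. The values were 42.0 and 35.2 in Tet2KO_vehicle and 26.6 and 37.6 in Tet2KO_VitD. The genotypes overlapped under vehicle, and under VitD both Tet2KO_VitD values lay above both WT_VitD values. Counts outside a deleted part, and Tet2 of other cell types, do not check the label, so these groups are called the libraries labelled Tet2 knockout.

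Of the 60 genes, 48 passed the filter on low counts: 18 proton pump genes, 2 Lamp genes, 10 cathepsins and all 18 Atg genes. The 12 others had between 0 and 44 counts over the 8 libraries together, where 3 counts correspond to 0.132 to 0.199 CPM in a library. They were the pump isoforms Atp6v1b1 (10 counts), Atp6v1c2 (32), Atp6v1e2 (3) and Atp6v1g3 (0), which are known from kidney and other specialised epithelia or from testis, the dendritic cell gene Lamp3 (2) and the neuronal gene Lamp5 (1). The untested cathepsins were Ctse (44), the neutrophil protease Ctsg (6), and Ctsj, Ctsm, Ctsq and Ctsr, which belong to the placental cathepsins and had 0 counts.

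Levels are compared between genes as CPM per kilobase of exon. Lamp1 led in WT_vehicle at 223 ± 20.2 CPM per kilobase (SD, n = 2), followed by the cysteine protease Ctsb at 187 ± 6.41, the aspartic protease Ctsd at 185 ± 35.7 and Ctsz at 95.7 ± 20.6. Ctsb and Ctsd did not differ beyond their spread. Lamp2 stood at 28.3 ± 5.39, and Lamp1 exceeded it between 5.54-fold and 8.52-fold over the 8 libraries. Atg genes were lower. Atg3, the E2-like enzyme that attaches LC3 to lipid, was the highest in WT_vehicle at 17.1 ± 1.85, and Atg9b was the lowest at 0.550 ± 0.243 CPM per kilobase.

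Where a pump subunit has several genes among the members, the ubiquitous isoform led the other members in every library. Tcirg1, a further gene of subunit a, falls outside the symbol rule and was not compared per kilobase. It stood at 59.7 and 68.2 CPM in WT_vehicle, where Atp6v0a2 stood at 75.1 and 78.7 CPM. These CPM are not scaled by gene length and do not rank Tcirg1 against Atp6v0a2. Atp6v0a1 and Atp6v0a2, the a1 and a2 isoforms of the V0 subunit that lines the proton path, were close, with a ratio of 1.14 to 1.73 per kilobase. The epithelial isoform Atp6v0a4 lay 19.0-fold to 60.4-fold below Atp6v0a1. Atp6v0d1 exceeded Atp6v0d2, the isoform known from osteoclasts and macrophages, by 138-fold to 343-fold in the 4 vehicle libraries. In the VitD libraries the same ratio was 50.3 and 47.9 in WT, and 20.9 and 119 in the libraries labelled Tet2 knockout. Atp6v1g1 exceeded the neuronal isoform Atp6v1g2 by 17.97-fold to 149-fold.

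**Figure D1:**
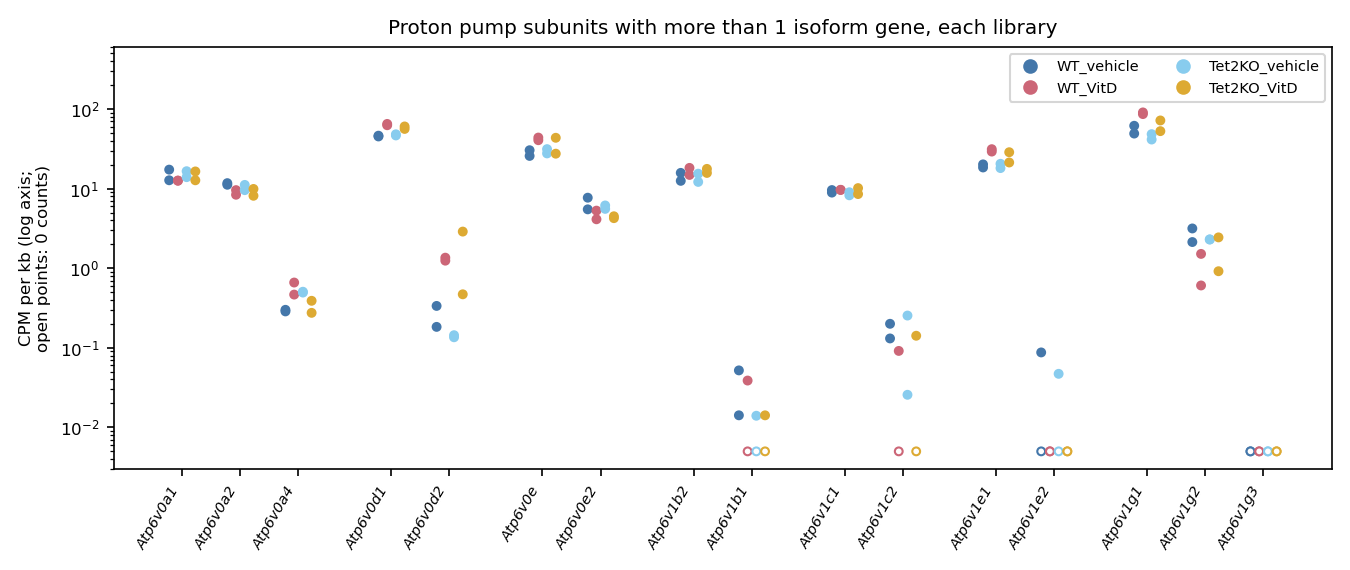
Levels of proton pump genes that encode isoforms of the same subunit, as CPM per kilobase of exon on a log axis, with 1 point for each library coloured by group and open points for 0 counts. Of the genes shown, the ubiquitous isoform of each subunit lies above the others, and Atp6v0d2 lies higher in the VitD libraries than in the vehicle libraries. Tcirg1, a further gene of subunit a, is not shown.

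VitD against vehicle was tested first in WT, with edgeR's quasi-likelihood test over all 16194 tested genes (Benjamini-Hochberg adjusted p below 0.05). Of the 48 tested members, 8 were called (16.7%), 5 higher and 3 lower, while 20.1% of all tested genes were called, 10.6% higher and 9.47% lower. The share of called members was thus close to the background. DESeq2 called 12 members beside 23.3% of all genes it tested. The limma voom fit, here always run with a quality weight for each library, called 20 beside 28.8%. By edgeR, 3 of 10 cathepsins and 2 of 18 pump genes rose and none of these fell, and 3 of 18 Atg genes fell and none rose. The other tools also gave calls against these directions: limma voom called Ctsf lower (log2 -0.65, adjusted p = 0.0414) and Atg3 and Atg101 higher (0.56 and 0.67, adjusted p = 0.0411 and 0.0323), and DESeq2 called Atg101 higher (0.70, adjusted p = 0.049). The median log2 fold change was 0.55 for cathepsins, 0.26 for pump genes and -0.24 for Atg genes, beside -0.03 for all tested genes. The difference between classes was not tested. With the range of library numbers as a covariate none of the 8 was called, and the medians were 0.24, -0.04 and -0.14. Number range and treatment coincide in WT, so this fit takes the range effect from the gap between Tet2KO_VitD 1 and 2 alone and subtracts it from the WT difference. It does not test number range in WT, where range and VitD cannot be told apart.

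**Figure D2:**
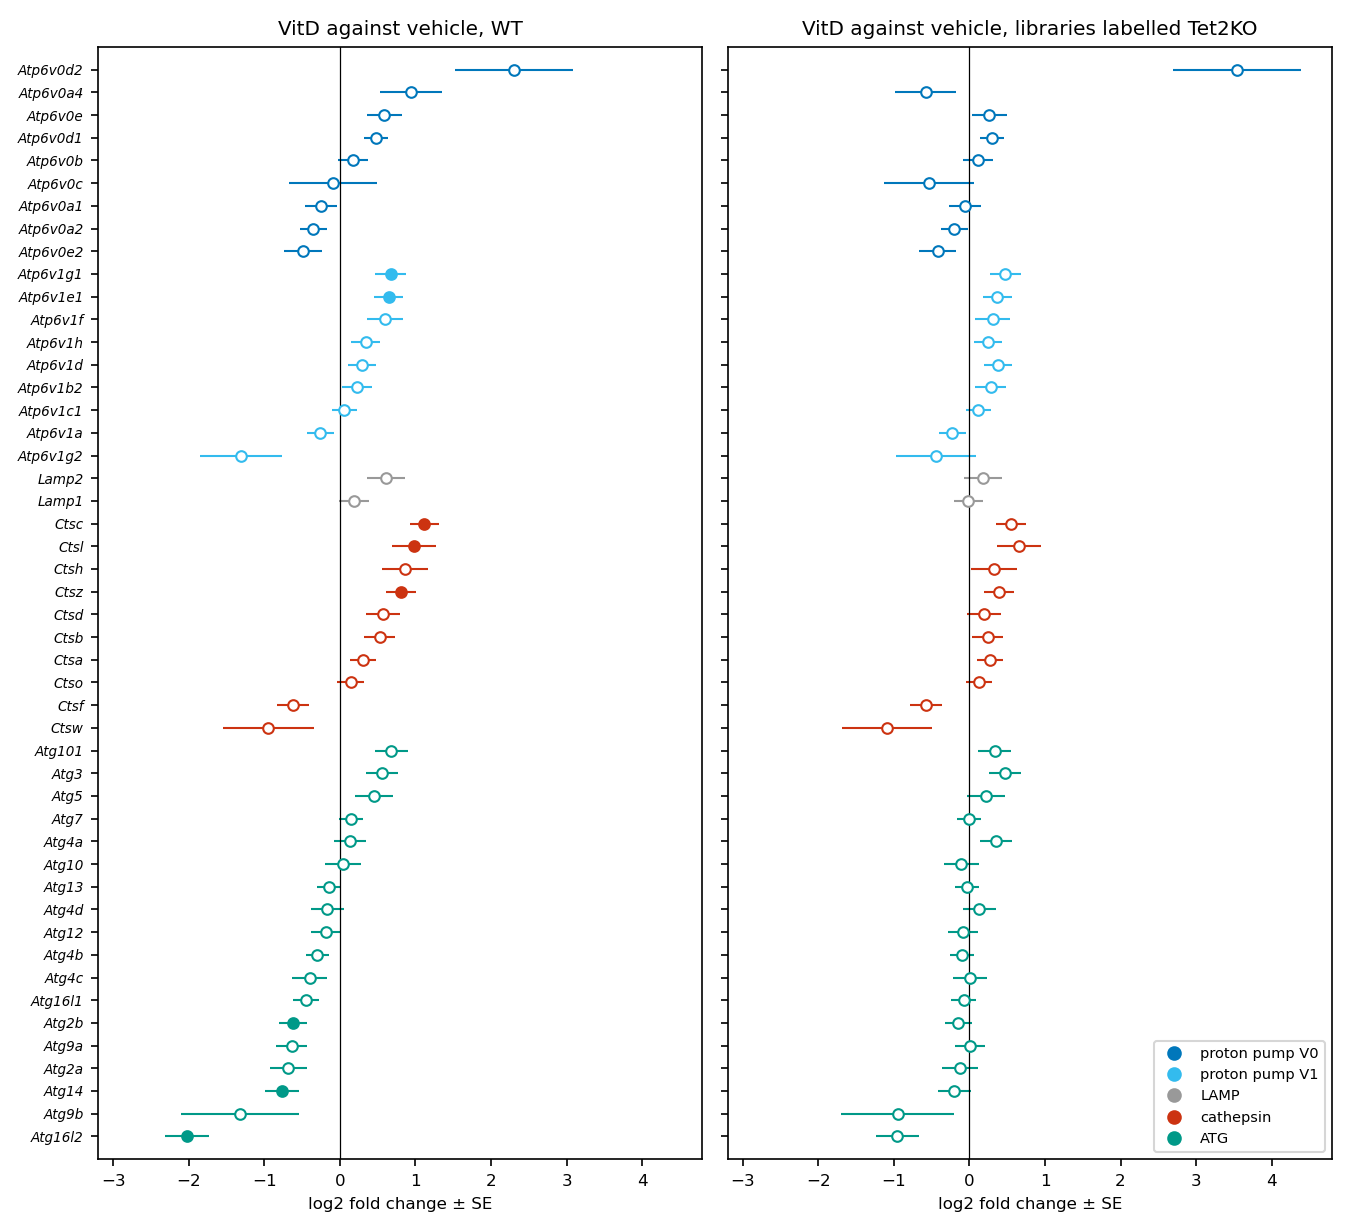
Log2 fold change of VitD against vehicle with its SE for the 48 tested members, in WT (left) and in the libraries labelled Tet2 knockout (right), grouped and coloured by class and ordered within a class by the WT value, with filled points for genes called by edgeR. In WT, Ctsc and Ctsl head the cathepsins with 1.12 and 0.98, Atp6v0d2 heads the V0 genes with 2.31 and is not called, and Atg16l2 closes the Atg genes with -2.02.

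None of the 9 genes of the V0 sector was called by edgeR in WT, and 4 had an unadjusted p below 0.05, as did 38% of all tested genes. DESeq2 called 1 of them, Atp6v0d2, and limma voom 3, Atp6v0d1, Atp6v0d2 and Atp6v0e. Atp6v0d2 stood at 0.497 and 0.911 CPM in WT_vehicle and at 3.38 and 3.68 in WT_VitD. Its counts were low, with 8 and 16 reads against 51 and 65. The groups did not overlap, and the log2 fold change was 2.31 (SE 0.786, adjusted p = 0.067). Atp6v0d1, the d subunit of most tissues, stood at 80.9 and 82.8 CPM in WT_vehicle and 112 and 116 in WT_VitD, a log2 difference of 0.48 (SE 0.155, adjusted p = 0.0573). The median of the 9 V0 genes was 0.17, with 5 positive and 4 negative. Atp6v0a1 and Atp6v0a2 were among the negative ones at -0.25 and -0.35.

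In the V1 sector, 2 of 9 tested genes rose, and the median was 0.29 with 7 positive. Atp6v1e1, which encodes a peripheral stalk subunit (chr6:120794305-120822793, minus strand, mm10), stood at 82.7 and 75.6 CPM in WT_vehicle and 128 and 119.8 in WT_VitD. Both VitD values lay above both vehicle values, a rise of 1.57-fold (log2 0.65, SE 0.192, adjusted p = 0.045). Atp6v1g1, the other stalk subunit called (chr4:63544772-63550750, plus strand), stood at 55.7 and 69.8 CPM against 103 and 97.8. It was 1.597-fold higher (log2 0.68, SE 0.206, adjusted p = 0.0486). Both calls lay close to the threshold, and leaving out any 1 of the WT or Tet2KO_vehicle libraries ended them. The edgeR adjusted p of Atp6v1e1 was then 0.125 or 0.151 on leaving out WT_vehicle 1 or 2, 0.163 or 0.193 for WT_VitD 1 or 2, and 0.0753 or 0.0747 for Tet2KO_vehicle 1 or 2. For Atp6v1g1 these values were 0.208, 0.077, 0.158, 0.203, 0.0757 and 0.0752 in the same order. Atp6v1h, a regulatory subunit, stood at 67.6 and 67.6 CPM against 84.9 and 86.2, a log2 difference of 0.34 (SE 0.19, adjusted p = 0.222).

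Neither tested Lamp gene was called in WT by edgeR or DESeq2, and limma voom called Lamp2, the 1 gene with an unadjusted p below 0.05 in edgeR. Lamp1 stood at 635 and 559 CPM in WT_vehicle and 694 and 668 in WT_VitD (log2 0.19, SE 0.196, adjusted p = 0.505). Lamp2, which takes part in chaperone-mediated autophagy, stood at 307 and 234 CPM against 399.7 and 426 (log2 0.61, SE 0.252, adjusted p = 0.113). The groups did not overlap for either gene, as for 33.8% of all tested genes in this direction.

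Cathepsins gave the largest positive median of the classes with more than 2 tested genes, with 8 of 10 positive and groups that did not overlap for all 10, against 69.2% of all tested genes in either direction. Ctsc (cathepsin C, chr7:88278085-88310888, plus strand) activates the serine proteases of granulocytes and other leukocytes. It stood at 84.6 and 76.1 CPM in WT_vehicle and 159 and 189.6 in WT_VitD. Every VitD value lay far above the vehicle values, a rise of 2.17-fold (log2 1.12, SE 0.196, adjusted p = 0.0117 by edgeR). The call was lost without WT_vehicle 1 (adjusted p = 0.068), WT_vehicle 2 (0.0564) or WT_VitD 2 (0.124).

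Ctsl (cathepsin L, chr13:64359337-64370890, minus strand), a cysteine endopeptidase, stood at 358 and 319.8 CPM in WT_vehicle and 630.3 and 708 in WT_VitD. It rose 1.97-fold (log2 0.98, SE 0.292, adjusted p = 0.0457 by edgeR). The annotation places an antisense gene, Gm47123, over 26.8% of its exonic bases, and whether reads were counted by strand is not stated. Leaving out any 1 of 6 libraries ended the call, with an adjusted p of 0.144 or 0.165 for WT_vehicle 1 or 2, 0.109 or 0.225 for WT_VitD 1 or 2, and 0.0772 or 0.0768 for Tet2KO_vehicle 1 or 2.

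Ctsz (cathepsin Z, chr2:174427493-174439039, minus strand), a carboxypeptidase, stood at 117 and 159 CPM in WT_vehicle and 241 and 242 in WT_VitD. It rose 1.75-fold (log2 0.81, SE 0.197, adjusted p = 0.0259 by edgeR). The call held without WT_vehicle 2 (0.0496). It was lost without WT_vehicle 1 (0.128), WT_VitD 1 (0.0941), WT_VitD 2 (0.169), Tet2KO_vehicle 1 (0.0524) or Tet2KO_vehicle 2 (0.0523).

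The most abundant cathepsins, Ctsb and Ctsd, were not called by edgeR but were called by DESeq2 and limma voom. Ctsb stood at 1103 and 1158 CPM in WT_vehicle and 1549.7 and 1701 in WT_VitD (log2 0.52, SE 0.208, adjusted p = 0.101). Ctsd stood at 376 and 495 CPM against 696 and 596 (log2 0.57, SE 0.223, adjusted p = 0.0983). Ctsf and Ctsw were the 2 cathepsins with negative values. Ctsf stood at 61.0 and 72.2 CPM against 51.0 and 35.7 (log2 -0.62, adjusted p = 0.0627), and Ctsw, a gene of cytotoxic lymphocytes, lay between 0.311 and 1.40 CPM.

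**Figure D3:**
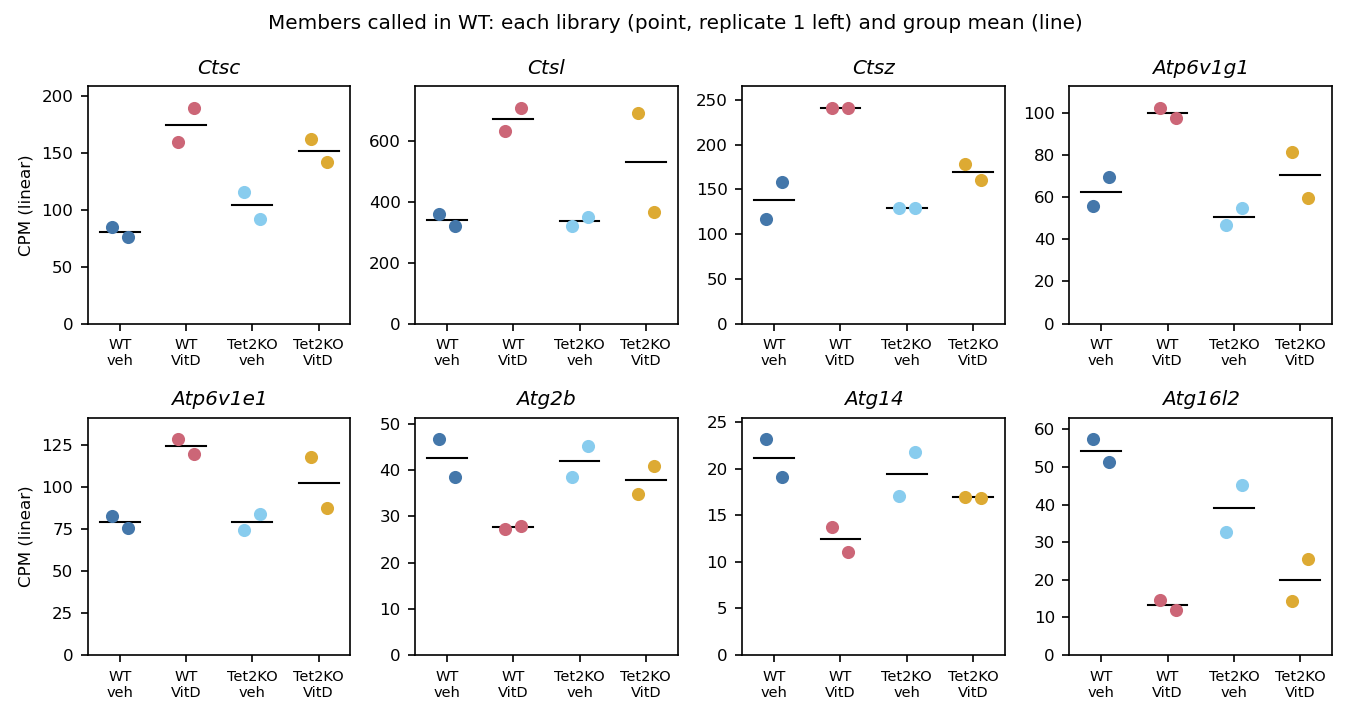
CPM on a linear axis from 0 for the 8 members called in WT, with 1 point for each library, replicate 1 at the left, and a line at each group mean. In WT the VitD points of Ctsc, Ctsl, Ctsz, Atp6v1e1 and Atp6v1g1 lie above the vehicle points and those of Atg16l2, Atg14 and Atg2b lie below. In Tet2KO_VitD the Ctsl points lie apart at 692 and 367 CPM.

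Among the 18 Atg genes 12 were negative in WT, and 10 had both VitD values below both vehicle values, against 35.3% of all tested genes. Atg16l2 (chr7:101263034-101302251, minus strand) is a relative of Atg16l1, which guides LC3 lipidation. It stood at 57.4 and 51.2 CPM in WT_vehicle and 14.7 and 12.1 in WT_VitD. It was 4.06-fold lower (log2 -2.02, SE 0.294, adjusted p = 0.00674 by edgeR), the most negative value of the 48 members. The call was lost without WT_vehicle 1 (adjusted p = 0.0534) or WT_VitD 2 (0.0852).

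Atg14 (chr14:47540893-47570649, minus strand) directs the lipid kinase complex that starts the autophagosome. It stood at 23.2 and 19.1 CPM in WT_vehicle and 13.8 and 11.1 in WT_VitD, 1.70-fold lower (log2 -0.77, SE 0.225, adjusted p = 0.0437 by edgeR). Atg2b (chr12:105616136-105685211, minus strand), a lipid transfer protein, stood at 46.7 and 38.6 CPM against 27.3 and 28.02, 1.54-fold lower (log2 -0.63, SE 0.184, adjusted p = 0.0445). Each of these 2 calls was lost without any 1 of the WT or Tet2KO_vehicle libraries. The adjusted p of Atg14 was 0.187 or 0.0769 for WT_vehicle 1 or 2, 0.113 or 0.28 for WT_VitD 1 or 2, and 0.0637 or 0.0639 for Tet2KO_vehicle 1 or 2. For Atg2b the values were 0.191, 0.0686, 0.209, 0.225, 0.0727 and 0.0722 in the same order. DESeq2 did not call Atg2b (adjusted p = 0.059).

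Values of further Atg genes follow. Atg5, the partner of Atg12, stood at 28.8 and 21.2 CPM in WT_vehicle and 34.6 and 33.8 in WT_VitD (log2 0.45, SE 0.254, adjusted p = 0.226 by edgeR). Atg7, the E1-like enzyme, stood at 30.1 and 32.9 CPM against 34.8 and 35.04 (log2 0.15, SE 0.158, adjusted p = 0.513). Atg3, which acts after Atg7, stood at 58.0 and 49.7 CPM against 78.2 and 79.98 (log2 0.55, SE 0.213, adjusted p = 0.0926). The genes just outside the threshold were Atg101 at 0.68 (adjusted p = 0.0553), which DESeq2 and limma voom called higher, and Atg9a, a lipid scramblase, at -0.64 (adjusted p = 0.0571).

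Shorter genes tended to have the higher fold change in WT. Spearman's rho between exonic length and log2 fold change was -0.19 across 15702 tested genes, -0.28 across the 48 members and -0.58 across the 18 Atg genes. These are descriptions across genes that share the same libraries. Atp6v1g1 has 1135 exonic bases and Atg2b 13456. With an offset that removes the trend with length in each library, edgeR kept 3 of the 8 calls: Atg16l2 (log2 -1.82, adjusted p = 0.00924), Ctsc (1.23, 0.0105) and Ctsl (1.12, 0.0405). Atp6v1g1 then stood at 0.34 (adjusted p = 0.184), Atg2b at -0.33 (0.173), Ctsz at 0.51 (0.0648), Atp6v1e1 at 0.65 (0.0533) and Atg14 at -0.74 (0.0539).

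**Figure D4:**
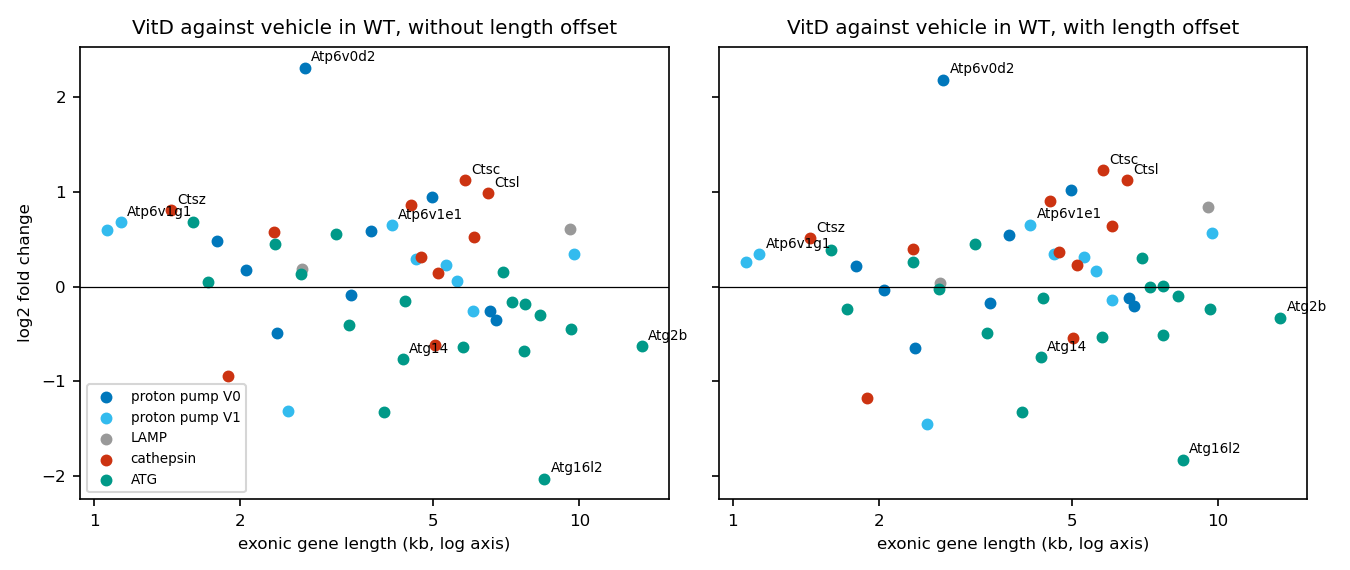
Log2 fold change of VitD against vehicle in WT plotted on exonic gene length in kilobases (log axis) for the 48 tested members, coloured by class, without (left) and with (right) the length offset. Atp6v1g1, among the shortest, moves from 0.68 to 0.34, and Atg2b, the longest, from -0.63 to -0.33, while Ctsc moves from 1.12 to 1.23.

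Markers of several cell types moved in the same comparison, where 10.6% of all tested genes were called higher and 9.47% lower. All 14 macrophage markers rose in WT (median log2 2.09), and their summed level was 642 and 668 CPM in WT_vehicle, 2805 and 3320.1 in WT_VitD, 835 and 1001 in Tet2KO_vehicle, and 2806 and 1643 in Tet2KO_VitD. All 6 tested of 10 neutrophil markers rose as well (median 3.88), from a sum of 9.88 and 4.73 CPM to 48.7 and 88.2. Of the smooth muscle markers 3 of 8 fell and none rose (median -0.77), with sums of 32758 and 32737 CPM against 23764 and 16042. The part of these cell types in the lysosomal results was not tested. Of the osteoclast markers 1 of 6 tested rose (median -0.01), Ctsk, and the defining genes Calcr, Ocstamp and Dcstamp lay at or below 0.623 CPM in every library. T cell and thymocyte markers fell in 2 of 11 cases (median -2.11), with a sum of 134 CPM in WT_vehicle 1 and 10.03 in WT_vehicle 2.

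The other marker lists differed from each other in WT, where 10.6% of all tested genes were called higher and 9.47% lower. Skeletal muscle markers rose in 6 of 7 cases (median 2.90), mesothelial markers in 4 of 5 (1.80), fibroblast markers in 1 of 6 (0.49) and endothelial markers in 1 of 6 (0.93), with none lower. WT_VitD 2 stood apart for 2 of these lists, with a skeletal muscle sum of 99.0 CPM in WT_VitD 1 and 429.9 in WT_VitD 2, and a mesothelial sum of 85.6 and 189 CPM. Dendritic cell markers rose in 2 and fell in 1 of 6 cases (median 1.20), and none of 7 adipocyte markers was called (-0.17).

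In the libraries labelled Tet2 knockout, none of the 48 members was called between VitD and vehicle by edgeR, and 5 had an unadjusted p below 0.05, as did 13.3% of all tested genes. Here 0.198% of all tested genes were called, 0.179% higher and 0.0185% lower. DESeq2 called 1 member, Atp6v0d2, beside 2.97% of all genes, and limma voom called 0 beside 0.0494%. The median of the cathepsins was 0.25, of the pump genes 0.18 and of the Atg genes -0.06, against -0.01 for all tested genes. The sign was that of the WT comparison for 41 of 48 members (85.4%), beside 80.0% of all tested genes, and the 2 comparisons share no library. All 14 macrophage markers were positive (median log2 1.22, 13 with groups apart), and Trem2 was called higher (2.54, adjusted p = 0.0417 by edgeR). The 6 tested neutrophil markers were positive (1.53). All 11 tested T cell and thymocyte markers (-1.83) and all 7 adipocyte markers (-0.67) were negative. The other marker lists had values of both signs, and no other marker was called. The part of these cell types was not tested.

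Both Tet2KO_VitD libraries differed from each other for many members. Atp6v0d2 stood at 0.368 and 0.391 CPM in Tet2KO_vehicle and at 7.83 and 1.28 in Tet2KO_VitD, from 126 and 29 reads. Its log2 fold change was 3.54 (SE 0.844, adjusted p = 0.155 by edgeR), and 3.58 with DESeq2 (adjusted p = 0.0014). Ctsl stood at 319.8 and 351 CPM in Tet2KO_vehicle and at 692 and 367 in Tet2KO_VitD, a log2 difference of 0.66 (SE 0.291, adjusted p = 0.377). Ctsh, an aminopeptidase, stood at 213 and 218 CPM against 363 and 177, so that the groups overlapped.

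Ctsc stood at 116 and 92.1 CPM in Tet2KO_vehicle and 162 and 141 in Tet2KO_VitD (log2 0.55, SE 0.194, adjusted p = 0.297 by edgeR). Atg16l2 stood at 32.6 and 45.3 CPM against 14.5 and 25.6 (log2 -0.96, SE 0.284, adjusted p = 0.24). For both genes the groups did not overlap, as for 23.7% of all tested genes upward and 22.2% downward, and in Tet2KO_VitD 2 the value lay nearer to the vehicle libraries. Ctsf was at -0.57 (SE 0.206, adjusted p = 0.3), Atp6v1g1 at 0.47 (SE 0.206, adjusted p = 0.373) and Atg3 at 0.48 (SE 0.212, adjusted p = 0.383). Lamp1 stood at 637 and 639 CPM against 659 and 606 (log2 -0.01, SE 0.196, adjusted p = 0.979), and Lamp2 at 291 and 327 against 425 and 277 (log2 0.18, SE 0.252, adjusted p = 0.752).

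For a reason that was not tested, the count depended on including Tet2KO_VitD 2. Without it, edgeR called 11.2% of all tested genes and 6 members: Atp6v0d2 (log2 4.34, adjusted p = 0.00344), Ctsl (1.04, 0.0142), Atg16l2 (-1.43, 0.015), Ctsh (0.75, 0.0426), Atg3 (0.73, 0.0427) and Atg9b (-2.95, 0.0455). The one VitD library left is then assumed to vary like the other groups. Within the range of the 4 vehicle libraries lay 25 of the 48 members (52.1%) in Tet2KO_VitD 2, against 7 (14.6%) in Tet2KO_VitD 1, 8 (16.7%) in WT_VitD 1 and 6 (12.5%) in WT_VitD 2. The cathepsin median, as log2 difference from the WT_vehicle mean, was 0.57 and 0.53 in WT_VitD, 0.35 in Tet2KO_VitD 1 and 0.09 in Tet2KO_VitD 2. The macrophage sum given above had the same order of the Tet2KO_VitD libraries. Sums of other lists also differed between Tet2KO_VitD 1 and 2, in both directions. They were 4357 and 1270 CPM for endothelial, 909 and 2851 for adipocyte, and 21586 and 30373 for smooth muscle markers. The part of these cell types was not tested.

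**Figure D5:**
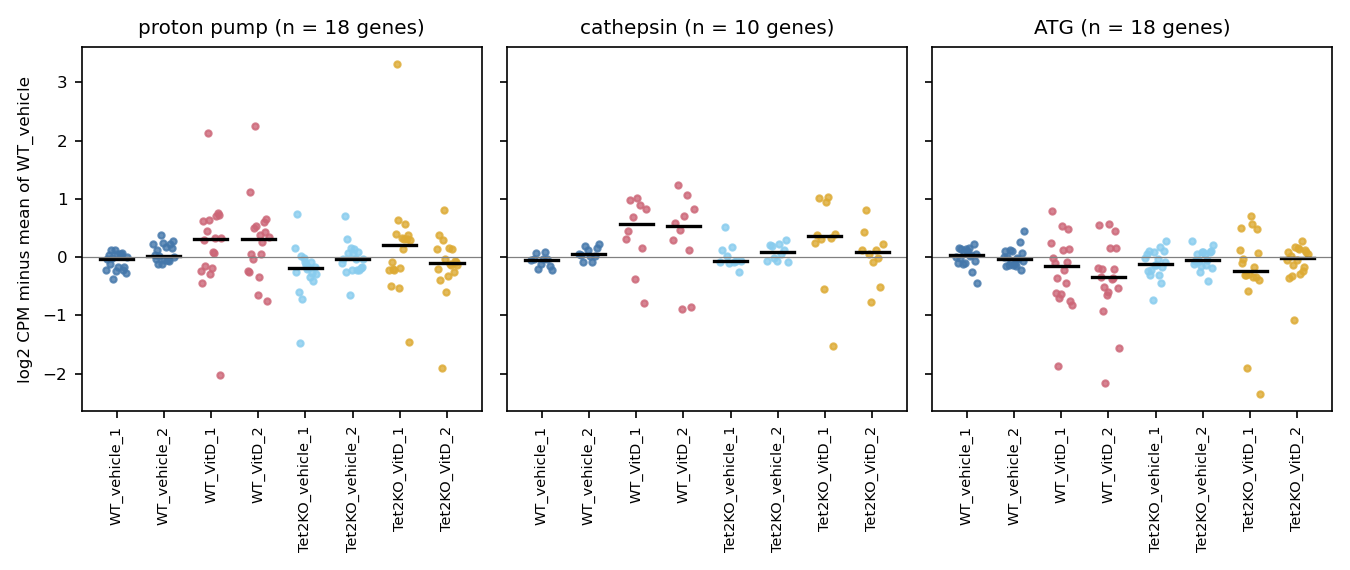
Log2 CPM minus the WT_vehicle mean for each tested member (points) in each of the 8 libraries, with a bar at the median, in 3 panels for proton pump genes, cathepsins and Atg genes. The cathepsin medians of WT_VitD 1, WT_VitD 2 and Tet2KO_VitD 1 lie at 0.57, 0.53 and 0.35, and that of Tet2KO_VitD 2 at 0.09, within the medians of the vehicle libraries.

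Between genotypes under vehicle no member was called by edgeR, DESeq2 or limma voom, and none had an unadjusted p below 0.05, which 2.97% of all tested genes had. The share of all tested genes called was 0%, and the groups did not overlap for 14.3% upward and 15.5% downward. The smallest p-values by class belonged to Atp6v0b and Atp6v0a4 (log2 -0.42 and 0.77), Atg4d and Atg16l2 (-0.45 and -0.48), Ctsc and Ctsb (0.37 and 0.16), and Lamp2 and Lamp1 (0.19 and 0.10), with an adjusted p of 1 for each. For Atp6v0b, a proteolipid of the V0 ring, the levels were 96.7 and 115 CPM in WT_vehicle and 69.3 and 88.8 in Tet2KO_vehicle. No marker was called under vehicle. All 14 macrophage markers were positive (median log2 0.46, 10 with groups apart). So were all 6 tested markers each of neutrophils (0.75), dendritic cells (0.50) and fibroblasts (0.19), and all 5 of mesothelium (1.07). All 7 skeletal muscle markers (-0.98) and 10 of 11 tested T cell and thymocyte markers (-0.88) were negative. The other marker lists had values of both signs. The part of these cell types was not tested.

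Under VitD the genotypes likewise gave no called member by edgeR, DESeq2 or limma voom, with 6 of 48 at an unadjusted p below 0.05, as 10.6% of all tested genes were, and 0% of all tested genes called. Ctsz stood at 241 and 242 CPM in WT_VitD and 179 and 160.3 in Tet2KO_VitD (log2 -0.51, SE 0.196, adjusted p = 0.467 by edgeR). Atp6v1g1 stood at 103 and 97.8 CPM against 81.4 and 59.7 (log2 -0.51, SE 0.205, adjusted p = 0.467). Atg9a went the other way, with 21.4 and 25.1 CPM against 27.6 and 38.4 (log2 0.51, SE 0.205, adjusted p = 0.467). These 3 pairs of groups did not overlap, as for 22.2% of all tested genes upward and 21.6% downward. Atp6v0b stood at -0.48, Atg2b at 0.45, Ctsd at -0.39, Lamp2 at -0.23 and Lamp1 at -0.11. No marker was called in this comparison either. Negative values were held by 13 of 14 macrophage markers (median log2 -0.47, 8 with groups apart) and all 6 tested neutrophil markers (-1.36). So were those of all 7 skeletal muscle markers (-3.41), all 5 mesothelial markers (-1.40) and 10 of 11 tested T cell and thymocyte markers (-0.84). Smooth muscle markers went the other way, with 7 of 8 positive (0.43, 3 with groups apart). The other marker lists had values of both signs. The part of these cell types in these results was not tested. Without Tet2KO_VitD 1, which leaves 1 library in that group, Ctsh stood at a log2 difference of -0.96 with edgeR.

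The difference between the VitD responses of the genotypes was tested as an interaction, which called no member with edgeR, DESeq2 or limma voom and 0% of all tested genes. Atg16l2 gave 1.07 (SE 0.402) and Atp6v0a4 -1.52 (SE 0.583), both with an unadjusted p below 0.05, as 6.21% of all tested genes had, and an edgeR adjusted p of 0.794. Atp6v0a4 stood at 1.49 and 1.42 CPM in WT_vehicle, 2.32 and 3.28 in WT_VitD, 2.52 and 2.46 in Tet2KO_vehicle, and 1.37 and 1.94 in Tet2KO_VitD. The interaction was -0.57 for Ctsc, -0.42 for Ctsz, 0.64 for Atg9a, 0.87 for Atp6v1g2, -0.43 for Lamp2 and -0.20 for Lamp1. A call in WT that is absent in the libraries labelled Tet2 knockout was therefore not shown to differ between the genotypes for any member.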

How the data were processed

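The deposited table holds raw read counts per gene symbol for 8 libraries. Per the labels' protocols, total RNA was extracted with TRIzol and poly-A libraries were made with a stranded TruSeq kit. The submitters' processing notes list featureCounts 2.0.2, STAR 2.7.8a and Trimmomatic 0.39, with mm10 as build. The sources used here do not give the annotation, the strand setting or the treatment of multi-mapping reads, so genes that share exonic bases are uncertain. Gene models come from GENCODE M21 (mm10), where 95.5% of symbols, and all 60 members, have 1 model.

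Counts were fitted with edgeR 4.0.16 in R 4.3.3 (TMM, filterByExpr, quasi-likelihood test, 1 mean per group, all 8 libraries, 4 residual degrees of freedom), in 5 comparisons, with Benjamini-Hochberg adjustment over 16194 genes. Only the main edgeR fit, for VitD against vehicle in WT, was tested on simulated data. CPM use TMM-scaled library totals. Alternatives were other scalings, DESeq2 1.42.0, limma 3.58.1 (voom with quality weights), other filters and a replicate block. Further ones were the library number range, a length offset, only the groups compared, and each library left out. Members and the 17 gene lists were chosen with earlier results of these data known. Named are every called member (up to 12 a class), otherwise up to 2 members of a class with the smallest p, and 10 members always given. Of the other lists, up to 4 called genes are named. Libraries of a group differed beyond counting noise. Genes stated as just outside a threshold, and those named for an overlap or a single library, were chosen after their values were seen.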

Additional observations from a re-analysis of the deposited data

How the results depend on the processing

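For VitD against vehicle in WT, 8 members were called, and 20 with limma voom, 13 without a filter on low counts, 3 with the length offset, 15 with only the groups compared and 0 with the number range of the libraries as a covariate. Leaving out 1 library gave 0 to 21 members: 0 without WT_vehicle 1 or WT_VitD 2, 2 without WT_vehicle 2, WT_VitD 1 or either Tet2KO_vehicle library, and 21 without either Tet2KO_VitD library. The counts over all tested genes moved too, from 3251 to 4659, 4808, 2774, 4597 and 58 under the first 5 alternatives. For the fits with 1 library left out, the share of all tested genes called in WT is not given here. Their member counts therefore do not show whether members moved more than the background. The 2 pump calls became 5 with voom, 5 without a filter, 0 with the length offset, 0 with the number range, 4 with only the groups compared, and 0 to 6 with a library left out. The 3 cathepsin calls became 6 with DESeq2, 7 with voom, 0 with the number range and 0 to 7 with a library left out. The 3 Atg calls became 7 with voom (2 higher, 5 lower), 1 with the length offset, 0 with the number range, 7 with only the groups compared and 0 to 7 with a library left out. In the libraries labelled Tet2 knockout, 0 became 1 with DESeq2, 2 without a filter (Atp6v0d2 and Atg16l2) and 0 to 6 with a library left out. Between genotypes under VitD, 0 became 0 to 1 with a library left out, and the other 2 comparisons stayed at 0 in every alternative run. The cause of these changes was not tested.

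The replicate numbers did not pair the samples: deviations of same-numbered libraries correlated from -0.11 to 0.14. With the replicate block, 3 members (Atg16l2, Ctsc and Ctsz) were called in WT, of 2474 genes, with 0 pump and 1 Atg call.

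Of 874 alternative values for 49 single-gene results, 776 kept direction and side of the threshold, 60 were no longer past it, 26 passed it and 12 changed sign. The number range coincides with treatment in WT, so its fit equals the WT difference less the gap between Tet2KO_VitD 1 and 2, and its sign changes rest on that pair of libraries. With it, Lamp2 stood at -0.0075, Atp6v0d2 at -0.30, Atp6v1h at -0.096 and Atg5 at -0.21 in WT, Lamp2 at -0.16 for VitD in Tet2 knockout and 0.042 between genotypes under VitD, and Atp6v1g2 at -0.016 for the interaction. With 1 library left out, Lamp2 ranged from -0.15 (without Tet2KO_VitD 1) to 0.46 and Lamp1 from -0.066 to 0.047 (without Tet2KO_VitD 2) for VitD in Tet2 knockout. Between genotypes under VitD, Lamp2 ranged from -0.59 to 0.041 (without Tet2KO_VitD 2), and for the interaction Atp6v1g2 from -0.021 (without Tet2KO_VitD 2) to 1.67. With the length offset, Lamp1 stood at 0.0026 between genotypes under VitD. With 2 libraries a group and 4 residual degrees of freedom, a call rests on few libraries, and Atp6v0d2 on few reads.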

Other observations

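Genes around the same compartment were described from 6 further lists, for VitD against vehicle in WT with edgeR. In that comparison 20.1% of all tested genes were called, 10.6% higher and 9.47% lower. Of 29 lysosomal hydrolases 7 rose and 3 fell (median log2 0.08). Lgmn, an asparaginyl endopeptidase that processes cathepsins, stood at 104 and 114 CPM in WT_vehicle and 299 and 364 in WT_VitD (log2 1.61, adjusted p = 0.00445). The heparan and dermatan sulphate enzyme Idua fell by 1.21 on the log2 scale (adjusted p = 0.0167), Gusb rose by 0.76 (0.0191) and Manba fell by 0.73 (0.023). Among 20 lysosomal membrane and transport proteins 3 rose and 3 fell (median 0.09), with the tetraspanin Cd63 at 1.11 (0.0162), Grn at 0.79 (0.0251), the sorting receptor Sort1 at -1.09 (0.02) and the cystine carrier Ctns at -0.74 (0.0286). Of 12 tested pump accessory and assembly genes none was called and 1 had an unadjusted p below 0.05 (median -0.07), with Ccdc115 at 0.42 (0.126) and Vma21 at 0.32 (0.252). Of 4 tested cystatins, inhibitors of cathepsins, 1 rose, Cstb, from 34.5 and 39.7 to 80.4 and 90.6 CPM (log2 1.20, adjusted p = 0.0195).

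Of 30 autophagy genes without an Atg symbol 3 rose and none fell (median 0.03), beside 20.1% of all tested genes called in either direction. Vmp1, a scramblase of the endoplasmic reticulum, stood at 64.6 and 55.5 CPM in WT_vehicle and 148 and 182 in WT_VitD (log2 1.46, adjusted p = 0.007), the LC3 relative Gabarap rose by 1.11 (0.0201) and the SNARE Vamp8 by 1.06 (0.0358). Among 21 transcription factors of lysosomal genes and anchors of mTORC1, 4 rose and 3 fell (median -0.13): Tfec stood at 2.50 (0.0186), Lamtor1 at 0.95 (0.0254), Zkscan3 at -1.18 (0.0178) and Mtor at -0.95 (0.0316). In the libraries labelled Tet2 knockout none of the genes of these 6 lists was called, with Lgmn at 0.92 (adjusted p = 0.13) and Vmp1 at 1.06 (0.0983), and the numbers of genes with an unadjusted p below 0.05 were 9 of 29, 4 of 20, 0 of 12, 1 of 4, 3 of 30 and 3 of 21 in the order above, beside 13.3% of all tested genes. The part of the macrophage markers, which rose in the same comparison, was not tested.

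Atp6v0c, which encodes the ring subunit c of V0 (chr17:24163866-24169702), was low in 2 libraries of different groups. It stood at 11.2 CPM in Tet2KO_vehicle 1 and 8.23 in Tet2KO_VitD 2, and at 26.6 to 38.8 in the 6 others. The log2 gap between these 2 libraries and the rest, 1.25, was the largest of the 11447 genes whose mean reached 5 CPM, and the next largest, 0.90, belonged to Rnps1, 245 kb away on the same chromosome (chr17:24414565-24425901). Rnps1 stood at 13.3 and 15.8 CPM in the same 2 libraries and at 29.6 to 43.4 in the others. The 7 other tested genes within 300 kb of Atp6v0c ranked from 2701 to 9424 by this gap. The genes and libraries were chosen after their values were seen.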
